A study of Mus musculus with 6 samples.

Results

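Cdon and 9 further genes of sonic hedgehog signalling were followed in sorted Pitx3-GFP neurons of embryonic mouse brain. The set holds the ligand gene Shh, the co-receptor genes Cdon, Boc and Gas1, the receptor gene Ptch1, the signal transducer gene Smo, the ligand-binding inhibitor gene Hhip and the transcription factor genes Gli1, Gli2 and Gli3. Every probe whose platform symbol is one of these names was taken, which gave 23 probes of 10 genes, among 41174 probes and 18295 genes on the array. Cdon was singled out beforehand because its ratio was among the lowest in the comparison described here, and the other 9 genes were added for their place in the pathway. The ratios of the set are therefore described without a test of their own.

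Each of 6 two-colour arrays carried RNA of Pitx3(gfp/-) neurons, called null here and named Pitx3-GFP/AK in the labels, and RNA of Pitx3(gfp/+) neurons, called heterozygous here. Both genotypes carry the gfp allele of Pitx3, a homeobox gene that midbrain dopaminergic neurons express, and the heterozygous controls have 1 unmodified copy. The cells came from E14.5 brain and were purified by flow cytometry. There were 3 heterozygous pools of several embryos each (69000 to 83000 cells per pool) and 1 null pool, and every heterozygous pool met the null RNA on 2 arrays of opposite dye, called its Cy5 array and its Cy3 array after the dye of the null RNA. All 6 arrays thus share the null RNA, and the spread given below, the SD over 3 pools after averaging the 2 arrays of a pool, leaves out how null pools vary. Nothing in the labels says how many null embryos were pooled.

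Sonic hedgehog is a secreted protein that patterns the ventral neural tube, and the floor plate of the midbrain, from which dopaminergic neurons arise, makes it. Without ligand, the receptor Patched (Ptch1) keeps Smoothened (Smo) inactive; ligand relieves that block at the primary cilium, and Gli proteins then switch target genes. Cdon, Boc and Gas1 bind the ligand beside Patched and help cells respond to it, while Hhip sequesters it. Cdon and Boc are single-pass membrane proteins with immunoglobulin and fibronectin repeats, and Cdon also acts with cadherins in muscle cell differentiation of the mouse.

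An annotated start of Cdon was examined for 2 motifs, because the comparison concerns a transcription factor and a pathway that ends in another. Promoter windows from 250 bases before to 50 bases after the start were available in RefSeq (GRCm38.p6) for 7 of the 10 genes; Boc, Shh and Gli1 were not among them. None of the 7 windows held GACCACCCA, a Gli binding motif, or TAATCC, a motif of bicoid-class homeodomain proteins such as Pitx factors, on either strand. These motifs occurred in 0.253% and 7.06% of all 32851 windows of the table. The Cdon window, chr9:35451826-35452125 on the plus strand, is printed because Cdon carries the main difference of the set. Its capitals mark the 50 bases from the start on. This window belongs to a start inside the RefSeq span of the gene (chr9:35421528-35507652), and the 5' end of that span was not scanned. The windows of Ptch1 and Gli2 also lie inside their spans and do not reach the 5' ends. The Cul3 window, chr1:80340641-80340940 on the minus strand, is printed because among 5 further pathway genes described below it was the one that held TAATCC, which is in capitals and begins 237 bases before the start.
Cdon: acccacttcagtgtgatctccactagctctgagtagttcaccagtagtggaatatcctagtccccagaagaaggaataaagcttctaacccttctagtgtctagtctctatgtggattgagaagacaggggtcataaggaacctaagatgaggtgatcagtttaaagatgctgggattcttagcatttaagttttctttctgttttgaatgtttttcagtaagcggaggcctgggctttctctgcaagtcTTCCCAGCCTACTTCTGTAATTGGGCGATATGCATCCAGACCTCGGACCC
Cul3: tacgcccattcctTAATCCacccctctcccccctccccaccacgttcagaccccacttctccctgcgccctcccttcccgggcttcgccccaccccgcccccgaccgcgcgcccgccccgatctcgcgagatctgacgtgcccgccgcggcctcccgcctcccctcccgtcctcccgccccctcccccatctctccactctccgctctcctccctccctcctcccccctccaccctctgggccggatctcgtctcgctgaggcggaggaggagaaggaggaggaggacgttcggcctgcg
A match or its absence describes these letters alone. The other genes with a probe above background lie at chr16:44485045-44558870 (Boc), chr13:63508328-63573460 (Ptch1), chr6:29735497-29761366 (Smo), chr10:127329882-127341579 (Gli1) and chr13:15463723-15730026 (Gli3) in the same build. Probe positions within the genes were not used here.

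Cdon RNA was lower in null neurons than in heterozygous neurons on every array. Its brighter probe had a normalized signal of 163, 172 and 174 intensity units for the null RNA on the Cy5 arrays of pools 1, 2 and 3, against 296, 295 and 334 for the heterozygous RNA. On the Cy3 arrays, in the same order of pools, the signals were 165, 188 and 184 for the null RNA, against 305, 235 and 306 for the heterozygous RNA. The ranges did not overlap, at 163 to 188 for the null RNA against 235 to 334 for the heterozygous RNA. In this RNA from whole sorted pools, fewer Cdon-expressing cells and less Cdon RNA per cell cannot be told apart.

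Expressed as a log2 ratio of null over heterozygous, Cdon read -0.86 (pool 1), -0.78 (pool 2) and -0.94 (pool 3) on the Cy5 arrays. On the Cy3 arrays it read -0.88 (pool 1), -0.32 (pool 2) and -0.73 (pool 3). The Cy3 array of pool 2 was the closest to 0, and the other 5 arrays lay within a narrow band. Pool means were -0.87, -0.55 and -0.84, and their mean was -0.75 ± 0.18 (SD, n = 3 pools), a level 1.69-fold lower in null neurons. Leaving out that array gave -0.83 ± 0.047. Seen through the shared null pool, the means of the heterozygous pools differed in Cdon by at most 0.32 on the log2 scale, between pools 1 and 2. The 2 arrays of pool 2 hold the same 2 RNAs and read -0.78 and -0.32. That gap thus includes differences between arrays and is not a difference between pools alone. Because Cdon was chosen for its low ratio and there was 1 null pool, nothing is read from a gap smaller than that ratio. Of all 18295 genes, Cdon ranked at 11 from the lowest ratio, which is the value it was picked for.

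**Figure D1:**
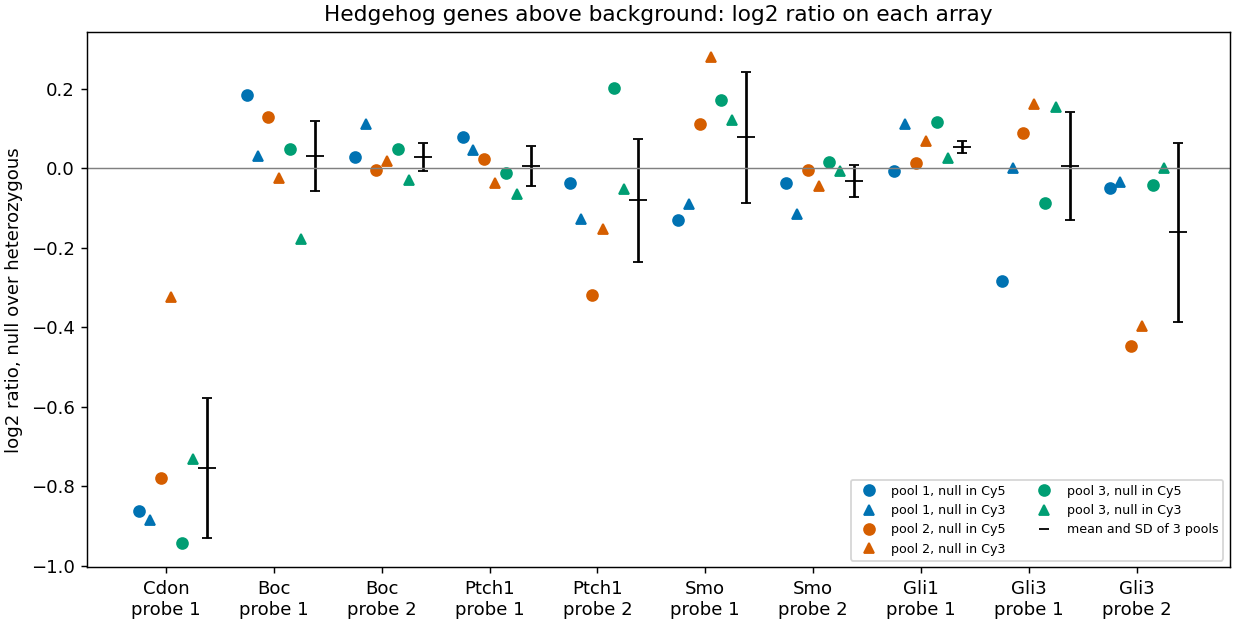
Log2 ratio of null over heterozygous RNA (vertical axis) for each of the 10 probes of the hedgehog set that were above background, on each of 6 arrays; colours are pools, circles and triangles are Cy5 and Cy3 arrays (named after the dye of the null RNA), and black bars are the mean and SD of 3 pools. Cdon lies between -0.94 and -0.32 on every array, while none of the other 9 probes has the same sign on all 6 arrays. Gli1 lies above 0 on 5 arrays, and the second probes of Ptch1, Smo and Gli3 lie below 0 on 5 arrays.

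The Cdon value rests on a single probe. The second Cdon probe was well above background (a spot mean at least 2 background SDs over its own background median) on 0 of 6 arrays in either RNA, with a mean scanner intensity of 45.0 in null RNA and 46.3 in heterozygous RNA over backgrounds of 41.3 and 40.0, so it gives no ratio. The brighter probe passed this limit on every array in each RNA, at mean scanner intensities of 169 (null) and 281 (heterozygous) over backgrounds of 43.3 and 42.6. Plain background subtraction gave -0.98 ± 0.26, and the authors' deposited normalized values gave -0.78 ± 0.18. The mean over both probes, one of which carries no measurable signal, was -0.40 ± 0.11. Over 15 alternatives in the processing the ratio stayed below 0, from -0.98 to -0.40.

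**Figure D2:**
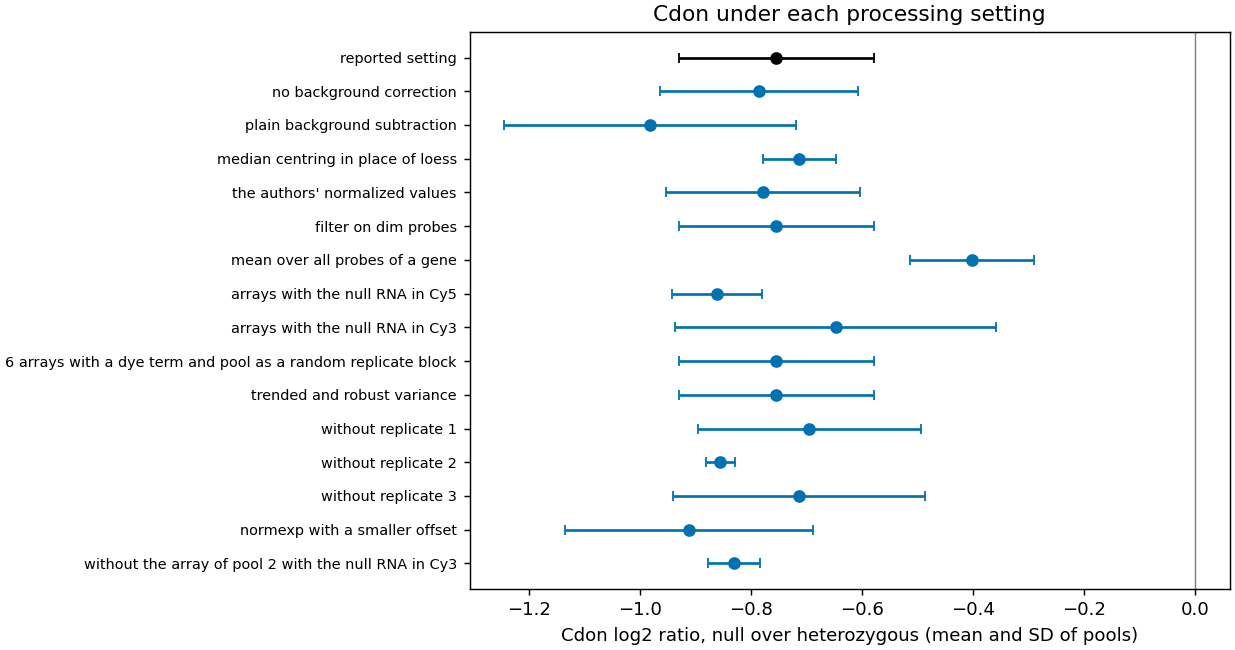
Cdon log2 ratio, null over heterozygous (horizontal axis), as reported (black) and under 15 alternatives (blue), with points for the mean and bars for the SD of the pools. Values run from -0.98 with plain background subtraction to -0.40 with the mean over both probes.

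The other co-receptor genes gave no comparable reading. Boc, which encodes the closest relative of Cdon, had a brighter probe that passed on 6 of 6 arrays in each RNA, with signals of 82.5 to 92.4 (median 86.8) in null RNA against 79.9 to 93.4 (median 85.6) in heterozygous RNA. These ranges overlapped almost fully, and the log2 ratio was 0.03 ± 0.088. Its mean was 0.12 over the Cy5 arrays and -0.06 over the Cy3 arrays, so the sign of the mean differed with the dye. A second Boc probe, above background on 2 arrays in null RNA and 3 in heterozygous RNA, read 0.03 ± 0.036. Gas1, the gene of a lipid-anchored co-receptor, was above background on 0 of 6 arrays in either RNA and has no ratio.

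Ligand and ligand inhibitor were not measurable. The Shh probe and both Hhip probes were above background on 0 of 6 arrays in either RNA, and Gli2 had 2 probes of which one was above background on 1 heterozygous array. Together the 6 probes of Gas1, Shh, Hhip and Gli2 had mean scanner intensities of 43.0 to 49.0 in null RNA and 42.4 to 48.5 in heterozygous RNA, over backgrounds of 38.9 to 41.8. A difference in these 4 genes was not detectable with these probes, which does not show that the genes were silent.

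Receptor and transducer genes were measured, and their levels differed by less than the spread between pools. Ptch1, which encodes the receptor and is itself induced by hedgehog signalling, had a brightest probe with signals of 71.0 to 75.9 (median 74.1) in null RNA against 70.4 to 76.2 (median 73.6) in heterozygous RNA, and a log2 ratio of 0.0060 ± 0.051. A dim second Ptch1 probe, above background on 3 arrays in null RNA and 4 in heterozygous RNA, read -0.08 ± 0.16. Its pool means were -0.08, -0.24 and 0.08. With plain background subtraction these 2 probes read 0.012 ± 0.19 and -0.32 ± 0.46. Of the 5 Ptch1 probes, the other 3 were above background on at most 1 array in each RNA. Smo had 2 probes that passed on 6 of 6 arrays in each RNA. The brighter one had signals of 174 to 212 (median 194) in null RNA against 174 to 192 (median 180) in heterozygous RNA. Its pool means of -0.11, 0.20 and 0.15 gave 0.08 ± 0.16. The second Smo probe, nearly as bright, read -0.03 ± 0.040, so the 2 probes differed in sign and both lay within the pool spread.

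**Figure D3:**
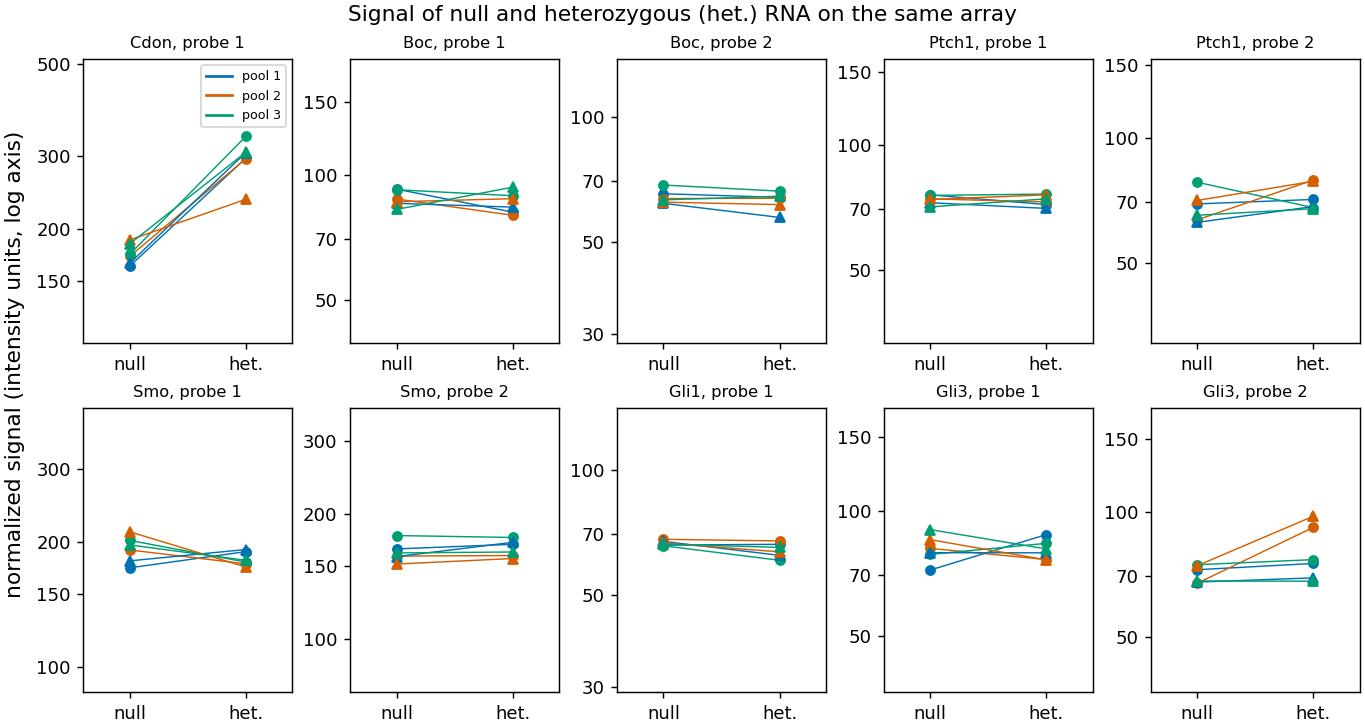
Normalized signal (log axis, intensity units) of null and heterozygous RNA on the same array, joined by a line for each of 6 arrays, in 1 panel for each of the 10 probes above background; colours are pools, circles and triangles are Cy5 and Cy3 arrays, and each panel spans the same fold range. Cdon shows 163 to 188 in null RNA and 235 to 334 in heterozygous RNA, and in the other 9 panels the ranges overlap.

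Among the transcription factors that end the pathway, Gli1 is a target induced by hedgehog signalling and Gli3 acts largely as a repressor in its absence. The Gli1 probe was dim, above background on 3 of 6 arrays in each RNA, with signals of 65.6 to 68.0 (median 66.4) in null RNA against 60.6 to 67.4 (median 64.3) in heterozygous RNA. Its log2 ratio was 0.05 ± 0.015 with the offset of 50 added to all signals, 0.15 ± 0.042 with an offset of 10 and 0.28 ± 0.074 with plain background subtraction, so its size depends on the offset, and it was above 0 in all 15 alternatives. Gli3 had 2 probes above background. The brighter one had signals of 71.9 to 90.0 (median 80.1) in null RNA against 76.0 to 87.5 (median 80.0) in heterozygous RNA, and read 0.0058 ± 0.14, at -0.09 over the Cy5 arrays and 0.11 over the Cy3 arrays.

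The second Gli3 probe read -0.16 ± 0.23, and 1 pool set that value. It read -0.45 and -0.40 on the 2 arrays of pool 2, against -0.05 to 0.00 on the other 4 arrays, and without pool 2 its mean was -0.03. Some endothelial markers, singled out after their values were seen, were also lowest in pool 2: Kdr read -0.76 there and -0.08 and -0.01 in pools 1 and 3, and Flt1 read -0.67 there and -0.26 and 0.14 in pools 1 and 3. The other 3 endothelial markers above background did not stand apart as far, with Cdh5 at -0.28 in pool 2 and -0.17 and -0.09 in pools 1 and 3. Cldn5 read 0.019 in pool 2 and 0.023 and 0.064 in pools 1 and 3, and Tek -0.04 in pool 2 and 0.016 and -0.05 in pools 1 and 3. The brighter Gli3 probe went the other way from the second Gli3 probe, at 0.13 in pool 2 and -0.14 and 0.03 in pools 1 and 3. The part of endothelial cells in either Gli3 reading was not tested.

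Counted by the probe of highest mean intensity for each gene, 1 of the 10 genes passed the limma fit over all genes at an adjusted p under 0.05, with a lower level in null neurons (Cdon), and 0 passed with a higher level. Among all genes, 1.87% were called lower and 3.09% higher in null neurons, 4.96% in all. Since Cdon was chosen from this same comparison, the count is given as a description and nothing is read from it. Cdon was past the threshold in 9 of 15 alternatives and not in the other 6, which were plain subtraction, median centring, the Cy3 arrays alone and each of the 3 fits without a pool. The median log2 ratio of the 10 genes, including 4 that were not above background, was 0.010, against -0.0027 over all genes. Of the 9 other probes above background, 0 had the same sign on all 6 arrays and 9 had overlapping signals in the 2 RNAs. In 8 of the 9, the largest gap between heterozygous pools exceeded the mean difference between null and heterozygous RNA. Gli1 was the other. These gaps include differences between arrays of the same 2 RNAs.

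The wider pathway was described with 6 lists of textbook members, of which 79 genes were analysed here and 65 were above background. Of the 79, 2 rose and 3 fell in null neurons, which is 2.53% and 3.80% against the 3.09% and 1.87% of all genes, and the median was -0.02. The members that passed were spread over 3 lists. All 5 calls ended in limma when any 1 pool was left out, with plain background subtraction and with median centring in place of loess, settings in which 0 genes of the whole array passed.

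Genes of ligand processing and release gave 1 rise and 0 falls among 7, with a median of 0.03. That 1 gene is 14.3% of the list, beside 3.09% of all genes called higher. Ihh, the gene of the related Indian hedgehog ligand, read 0.19, 0.16 and 0.17 in the 3 pools and rose by 0.17 ± 0.018 (limma adjusted p = 0.0425), a call that held in 5 of 15 alternatives. A dimmer second Ihh probe, above background on 1 array at most, read 0.04. Hhat, which encodes the enzyme that attaches palmitate to hedgehog ligands, read 0.45 ± 0.18 and did not pass (limma adjusted p = 0.0675), although it was above 0 on all 6 arrays. Among 5 measured reception genes 0 rose and 0 fell, with a median of -0.02. The glypican genes Gpc4 and Gpc3, whose products are heparan sulphate proteins of the cell surface, read 0.11 ± 0.063 and -0.07 ± 0.096.

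Of 31 measured genes of transduction and the primary cilium, 0 rose and 3 fell, and the median was -0.03. The 3 falls are 9.68% of the list, beside 1.87% of all genes called lower, and the calls depend on the processing. Kif3a, a motor subunit of kinesin-2 that cells need to build primary cilia, read -0.62, -0.54 and -0.34 in the 3 pools, and fell by 0.50 ± 0.15 (limma adjusted p = 0.0418, called in 10 of 15 alternatives). Its signal averaged 152 in null RNA and 215 in heterozygous RNA; a dim second probe, above background on 0 null and 3 heterozygous arrays, read -0.06. Mgrn1, an E3 ubiquitin ligase that takes part in removing Smoothened from the cell surface, fell by 0.35 ± 0.066 (limma adjusted p = 0.0317, called in 5 of 15). Its pool means of -0.37, -0.40 and -0.27 were closer together than its arrays, which ran from -0.62 on the Cy5 array of pool 2 to 0.03 on the Cy5 array of pool 3. Cul3, the scaffold of the ubiquitin ligase that degrades Gli proteins with Spop, fell by 0.23 ± 0.058 (limma adjusted p = 0.0456, called in 5 of 15). Of its 4 further probes, 3 were above background: 2 of them, on 5 and 4 arrays in each RNA, read -0.09, and the third, on 2 null and 4 heterozygous arrays, read -0.05. Sufu, which encodes an inhibitor of Gli proteins, read 0.07 ± 0.036, and Prkaca, a catalytic subunit gene of protein kinase A, read 0.0011 ± 0.020. Both were picked for their role, and neither passed. They do not stand for the whole list, in which 20 genes read below 0 and 11 above 0.

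Neither group of target genes held a call, where 4.96% of all genes were called. Among 14 genes that hedgehog signalling induces, 0 rose and 0 fell, with a median of -0.0027. Foxa2, a forkhead factor of the floor plate and of dopaminergic neurons, read -0.27 ± 0.099 with all 6 arrays below 0 and did not pass (limma adjusted p = 0.0633). Nkx6-2, a homeodomain factor of ventral progenitors, read 0.10 ± 0.30. Among 6 neural tube genes that hedgehog signalling represses, 0 rose and 0 fell, with a median of 0.013. The homeobox gene Irx3 read -0.58 ± 0.28 (limma adjusted p = 0.0886) and Pax6 0.45 ± 0.40 (limma adjusted p = 0.246), in opposite directions and with wide spreads between pools.

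Among 16 genes whose products work with Cdon outside hedgehog signalling, 1 rose and 0 fell, with a median of -0.04. That 1 gene is 6.25% of the list, beside 3.09% of all genes called higher. Cdc42, a small GTPase activated through Cdon in mouse myoblasts, rose by 0.21 ± 0.051 (limma adjusted p = 0.0490, called in 3 of 15 alternatives), but 3 further probes above background read -0.07, 0.11 and 0.07, so the probes of the gene differed in sign. Tcf12, an E protein gene, read -0.32 ± 0.23 and did not pass (limma adjusted p = 0.188). Neo1, the gene of the netrin and repulsive guidance receptor neogenin, read -0.11 ± 0.034 and the N-cadherin gene Cdh2 -0.04 ± 0.11; both were picked here as known partners of Cdon.

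**Figure D4:**
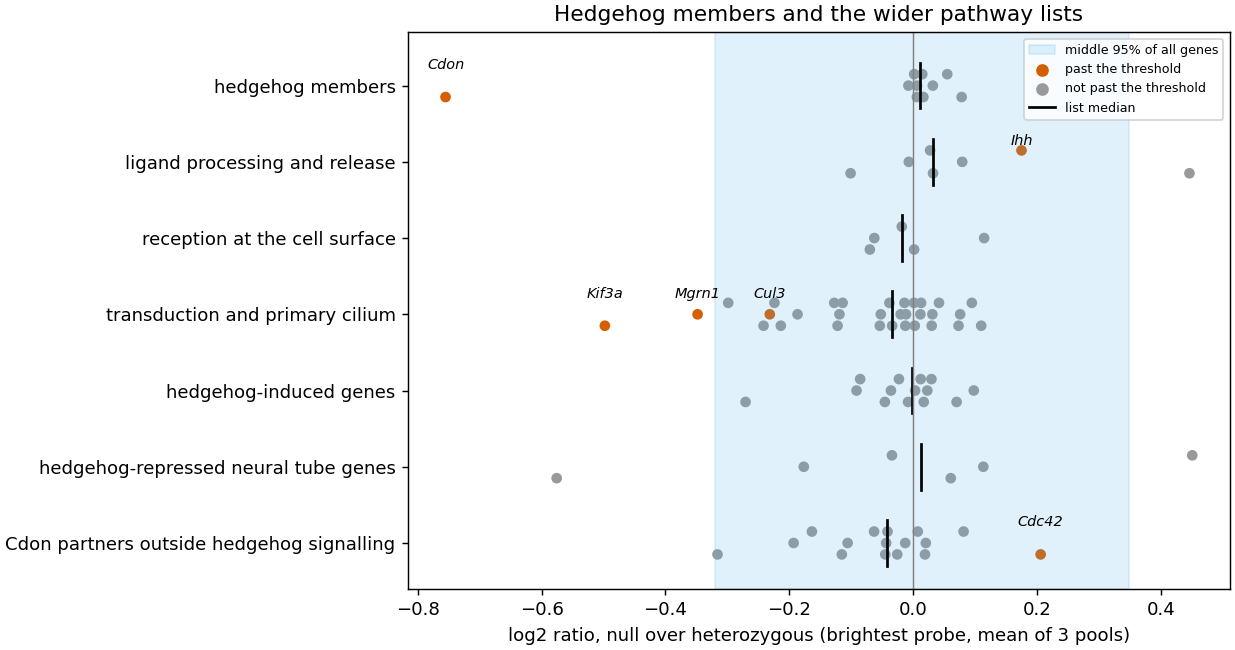
Log2 ratio, null over heterozygous, of the brightest probe of each gene (mean of 3 pools) for the 10 hedgehog genes, 4 of which were not above background, and for 6 wider lists; orange marks genes past the threshold, black lines are list medians and the blue band holds the middle 95% of all genes (-0.32 to 0.35). Cdon lies at -0.75, and the medians lie between -0.04 and 0.03.

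The labelled cell type was checked against marker lists, whose summed normalized signals carry the offset of 50 for each gene. Of 9 dopaminergic markers, 7 were above background, among them Slc6a3, Ddc, Slc18a2, Nr4a2, Lmx1b and Pitx3, while Th and En1 were not. Slc6a3, the dopamine transporter gene, fell by 0.42 ± 0.018 (limma adjusted p = 0.0260), as 1 of 9 markers beside 1.87% of all genes called lower. It was above background on 2 of 6 arrays in null RNA and 6 of 6 in heterozygous RNA. Its null level thus lay near background, and it counts as above background through the heterozygous RNA. The summed signal of the 7 markers was 830 to 1122 in null RNA against 847 to 1317 in heterozygous RNA. Pitx3 itself was above background on 6 of 6 arrays in each RNA. It read -0.45, 0.12 and 0.07 in pools 1, 2 and 3 (-0.08 ± 0.32). This reading does not tell the 2 genotypes apart, and the genotypes rest on the labels. The 8 neuronal markers summed to 2452 to 2791 in null RNA against 2702 to 2887 in heterozygous RNA, with 0 calls.

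Of 11 markers of floor plate and radial glia, cells that answer hedgehog ligand, 8 were above background, and their summed signal was 5316 to 5763 in null RNA against 4013 to 5280 in heterozygous RNA, ranges that did not overlap, although 0 of the 11 passed the fit and their median log2 ratio was 0.03. Hes5 read 0.40 ± 0.20, Fabp7 0.38 ± 0.21, Vim 0.14 ± 0.13 and Sox2 0.11 ± 0.057, while Slc1a3 read -0.23 ± 0.33 with pool means of -0.55, -0.25 and 0.12. Hes1, Corin and Lmx1a were not above background. Mesenchymal markers (5 of 7 above background, Dcn and Lum not) summed to 445 to 469 in null RNA against 418 to 449 in heterozygous RNA. Of these 7, 1 rose (Postn), beside 3.09% of all genes called higher. Endothelial markers (5 of 6, Pecam1 not) summed to 703 to 772 in null RNA against 718 to 1076 in heterozygous RNA, with 0 calls. Oligodendrocyte precursor markers (4 of 4) summed to 415 to 459 in null RNA against 399 to 455 in heterozygous RNA, and microglial markers (4 of 4) to 317 to 369 in null RNA against 314 to 374 in heterozygous RNA. The part of these cells in the Cdon reading was not tested.

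The 5 genes whose ratios over the 6 arrays were nearest to those of Cdon, by root mean square difference among 12290 other genes above background, were Wdr13, Gprasp1, Rab10, Kif21b and Pogz, at differences of 0.17 to 0.21. Wdr13 encodes a WD-repeat protein and read -0.71 ± 0.12. Gprasp1, which encodes a sorting protein for G protein-coupled receptors, read -0.68 ± 0.34. On the Cy3 array of pool 2, where Cdon had its highest value, so did Gprasp1 (0.042), Wdr13 (-0.53), Rab10 (-0.47) and Kif21b (-0.57). Pogz read -0.68 there, which was not its highest value. Rab10, a GTPase gene of vesicle transport, read -0.66 ± 0.12, the kinesin gene Kif21b -0.64 ± 0.048 and the zinc finger gene Pogz -0.78 ± 0.11. These genes are near Cdon because they share its level of ratio, and all ratios share the null pool.

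**Figure D5:**
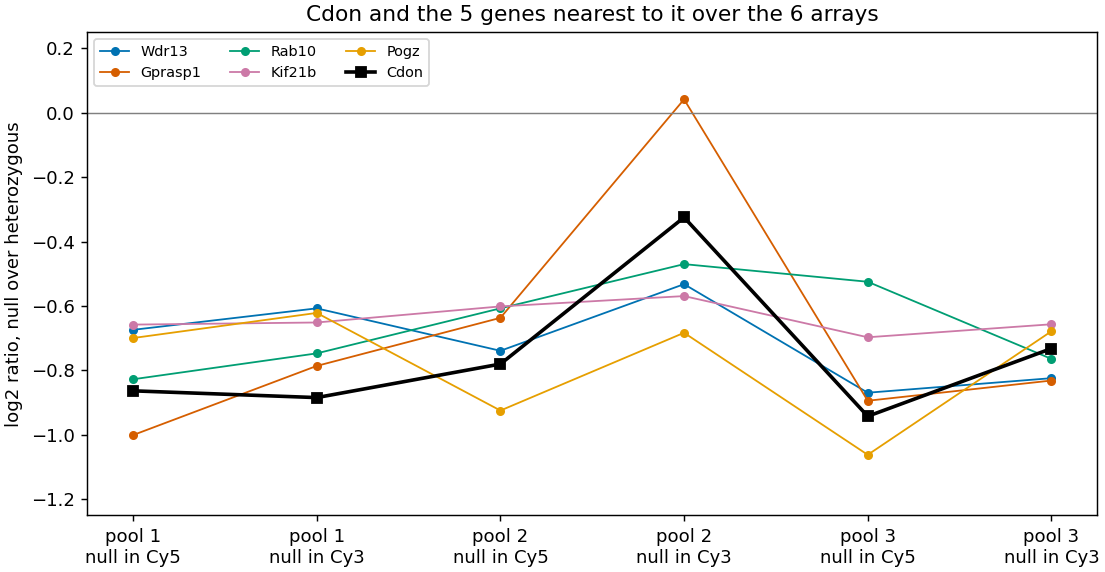
Log2 ratio, null over heterozygous, of Cdon (black) and of the 5 nearest genes (colours) on each of the 6 arrays; lines join the values of a gene and do not mark an order. On the Cy3 array of pool 2, Cdon reads -0.32 and Gprasp1 0.042, while the other 4 genes stay between -0.68 and -0.47.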

How the data were processed

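The authors deposited scanner tables, which per the file headers hold the unnormalized intensity of each spot and its local background for both dyes, and intensity values normalized by a method not given in the sources used here. Their deposited log2 values equal the log2 of normalized Cy5 over Cy3 at all 45220 spots of each array (largest difference 5.0e-10). Per the labels' protocols, T7 amplification was done in 2 rounds before dye labelling. Scanner and image software are not given in the sources used here.

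Scanner intensities were corrected with normexp (offset 50, which draws the ratios of dim probes toward 0) and loess, with 4046 control spots at weight 0, in limma 3.58.1 (R 4.3.3). Signals per RNA were taken after Aquantile scaling. Of 41174 probes, 34186 had 1 platform symbol, 3726 of them updated through RefSeq (GRCm38.p6), and 6988 had none. The brightest probe represented a gene; ratios read null over heterozygous. Arrays of a pool were averaged (n = 3) and tested against 0 with lmFit and eBayes, Benjamini-Hochberg over 18295 genes, threshold 0.05. A gene was above background if this held on at least 3 of 6 arrays in either RNA, as for 12291 genes (47.6% to 71.4% of genes on an array and RNA). The number of arrays limits precision. The fit was tested on simulated data.

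Pairing follows the labels: same-numbered arrays hold the same 2 RNAs. The members, lists and tests were chosen with earlier results of these data known. The named genes are the 10 members, list genes past the threshold, the 2 largest ratios above background in each list, the 5 genes nearest to Cdon, Pitx3 and defining markers; others were picked for their role or, for the endothelial and radial glial markers given singly, after their values were seen. The alternatives were other background corrections, median centring, the deposited normalized values, dim probes, several probes, dye orientation, the replicate block, the variance model and each pool. File headers give no slide, so a slide block was not run. A smaller offset of 10 and leaving out 1 array were added after seeing the data.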

Additional observations from a re-analysis of the deposited data

Results flagged for a closer look

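For 28 probes named in the text, the log2 ratios of the 6 arrays were searched for a single array far from the rest, by the ratio of its gap to the whole range (Dixon). Chance gives this for about 5% of probes, and it was found for 3. Cdon was at -0.32 on the Cy3 array of pool 2, while its other arrays lay between -0.94 and -0.73. Gprasp1 was at 0.042 on that array and at -0.64 or lower elsewhere. Tcf12 was at -0.91 on the Cy5 array of pool 2 and between -0.26 and -0.17 elsewhere. All 3 readings came from pool 2, though not from the same array. Gprasp1 was searched because it was near Cdon over these same 6 arrays, so its reading is not independent of that of Cdon.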

How the results depend on the processing

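The Cdon ratio of -0.75 moved beyond its pool SD in 2 of 15 alternatives, to -0.98 with plain background subtraction and to -0.40 with the mean over both probes, and ran from -0.86 to -0.70 when each pool was left out. It was past the threshold in 9 of the 15; with Cy3 arrays alone it was not, at -0.65, where 674 genes passed. The 908 genes called over the whole array became 0 with plain subtraction (3305 at an unadjusted limma p under 0.05), 0 with median centring (2604) and 0 to 0 when leaving out each pool (2956 to 3259), against 3753 as reported. They became 2221 with the 6 arrays in 1 model with a dye term and pool as a random replicate block, which counts paired arrays as more samples, and 1621 with the smaller offset. The count of wider pathway genes called, 5 as reported, became 0 with plain subtraction (13 at an unadjusted p under 0.05), 0 with median centring (13) and 0 to 0 without each pool (17 to 19). It became 3 with the authors' values (3 of them among the 5), 3 with Cy5 arrays alone (2 shared), 2 with Cy3 arrays alone (1 shared), 13 with the replicate block (4 shared), 3 with the trended robust variance (1 shared) and 3 without the Cy3 array of pool 2 (2 shared). The mean over probes also called 5, of which 2 were shared, and the smaller offset 7, of which 3 were shared. Leaving out a pool leaves fewer samples; for other losses the cause was not tested. No sign turned among Cdon and these 5 genes.

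Of the other probes of the set, some turned sign: the brighter Boc probe was below 0 in 2 of 15 alternatives, the brighter Gli3 probe in 5 of 15 and the brightest Ptch1 probe in 3 of 15, and the second Smo probe was above 0 in 1 of 14. Plain subtraction moved Gli1 to 0.28, the second Boc probe to 0.19, the second Ptch1 probe to -0.32 and the second Gli3 probe to -0.43. Dim probes limit what these arrays show of Gas1, Shh, Hhip and Gli2, and the 1 null pool limits every ratio.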

Other observations

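Probes of 1 gene often disagreed on these arrays. Across all genes, 4281 further probes were above background together with the brightest probe of their gene, and 2475 of them had a ratio of the same sign as that probe. Their ratios correlated at 0.32 (Pearson), across probes that are not independent replicates. Of the hedgehog set, Boc, Ptch1, Smo and Gli3 each had 2 probes above background, and Cdon and Gli1 had 1.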
